A study of Mus musculus with 6 samples.

Results

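The genes that flank Bmi1 on mouse chromosome 2 were described here as all array probes, other than controls and the Bmi1 probes themselves, whose position in the files lay within chr2:13600000-23600000 (mouse assembly mm9), which is 5 Mb on each side of Bmi1. This rule gave 74 of the 35019 gene and transcript names on the array. They were read by 37 probes before and 70 after Bmi1, out of 55681 probes in all. Of these probes, 57 were matched to a RefSeq symbol, and 16 were lincRNA probes placed by design on 2 regions more than 4 Mb after Bmi1. RNA came from HSCs (hematopoietic stem cells, which renew themselves and feed all blood lineages) and MPPs (multipotent progenitors, their progeny with little self-renewal). Both were FACS-purified from wild-type (WT) and from Bmi1 KO mice, all of strain background C57BL6 and 2 to 3 months old, and 10 µg of Trizol-extracted total RNA was labelled. Each of 6 dual-colour Agilent arrays, 3 per population, held a WT sample in Cy3 (green) and a Bmi1 KO sample in Cy5 (red). The dye assignment was the same on all 6, so dye and genotype cannot be told apart in a KO over WT ratio. How many mice each sample pooled, how the KO allele was made and which part of Bmi1 it removes are not given in the sources used here.

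Bmi1 is a subunit of Polycomb repressive complex 1, which ubiquitinates histone H2A and keeps developmental and cell cycle inhibitor genes silent, and HSCs need it to renew themselves. A targeted allele is usually made in embryonic stem cells of another strain, and crossing it into C57BL6 leaves a stretch of donor chromosome around the target. Genes on that stretch can then differ between KO and WT through their own alleles, through the targeting cassette, or because a sequence difference under a probe alters binding to it. The members are thus grouped only by position, and their products range from endosomal sorting and lipid kinases to cell cycle control, mitochondria and cilia.

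Every array carried 62976 spots, and the share of non-control spots marked well above background was 72.5% to 82.2% for WT (green) and 78.8% to 83.9% for KO (red). The Bmi1 probes did not follow the KO label uniformly: the first had log2 KO over WT ratios of -0.39, -2.42 and -0.50 in HSC replicates 1 to 3 and 0.23, -0.69 and 0.48 in MPP replicates 1 to 3, and the second 0.11, -1.66 and 1.36 in HSC replicates 1 to 3 and 0.93, 0.70 and -0.051 in MPP replicates 1 to 3. Both were well above background in the KO channel on all 6 arrays. The deleted part is not stated, so whether the probes lie within it is not known. The cause of the uneven Bmi1 ratios was not tested, and "KO" below means the sample labelled so. Ratios correlated weakly between arrays (r from -0.070 to 0.20 over 44641 probes, several per gene in places). The highest r was between MPP replicates 2 and 3, the only arrays on slide row 2. Row 1 held all HSC arrays and MPP replicate 1, so row is partly tied to population. Of the marker genes, 6 of 7 for HSCs and 5 of 5 for progenitors were well above background in all WT samples, and so were 5 of 5 for macrophages, 4 of 4 for T and NK cells and 2 of 4 for stroma, while 1 stromal and 1 neutrophil marker never were. Summed B-lineage signal in the KO channel was 3650 to 15872 in HSCs and 25174 to 161933 in MPPs (8 markers, 7 of them well above background on all arrays in KO). In WT it was 1730 to 3663 in HSCs and 2897 to 4661 in MPPs. The median signal of an array was 379 to 581 in red and 124 to 206 in green, so sums are not comparable between the dyes. The B-lineage markers' median log2 KO over WT ratio was 0.19 in HSCs and 3.62 in MPPs. The part of B-lineage signal in the results was not tested. Likewise, summed erythroid signal in WT HSCs ran from 1260 to 33820 among the 3 arrays, and neutrophil signal from 617 to 26824.

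The 60-base probes carry the position and the strand of each measurement. Shown first, 5′ to 3′ and in lower case, are those of Commd3, the gene nearest to Bmi1, and of the members whose ratio kept 1 sign on all 6 arrays, with only the first 30 bases for the coding genes. The probe for Commd3 (chr2:18597631-18597690, plus strand) lay 0.010 Mb before Bmi1 and that for Pip4k2a (chr2:18765789-18765848, minus strand) 0.158 Mb after it. The probes for the non-coding RNA Gm13375 (chr2:20891257-20891316, plus strand) and for a lincRNA design region (chr2:22770724-22770783, minus strand) are given whole.
Commd3, A_51_P413785: gagctggatgtcattttcagtggaaaaaga
Pip4k2a, A_55_P2093784: ttaacagctacctgatatttcccagcatcg
Gm13375, A_55_P2157260: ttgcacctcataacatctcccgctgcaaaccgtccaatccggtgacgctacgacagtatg
lincRNA design, A_30_P01019946: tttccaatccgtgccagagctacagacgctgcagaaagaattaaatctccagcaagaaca

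The 3 lincRNA design pairs are shown because the probes of a pair read the same genomic stretch on opposite strands. Capitals mark the shared stretch of 22, 31 and 49 bases, which is the reverse complement of the partner's. The first pair lay at chr2:22772740-22772799 (minus strand) and chr2:22772778-22772837 (plus strand), the second at chr2:22789101-22789160 and chr2:22789130-22789189, and the third at chr2:22789966-22790025 and chr2:22789977-22790036, in the same order of strands.
pair 1, minus strand, A_30_P01028582: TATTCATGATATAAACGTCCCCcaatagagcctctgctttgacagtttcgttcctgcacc
pair 1, plus strand, A_30_P01027636: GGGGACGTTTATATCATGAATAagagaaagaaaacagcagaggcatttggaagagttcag
pair 2, minus strand, A_30_P01028775: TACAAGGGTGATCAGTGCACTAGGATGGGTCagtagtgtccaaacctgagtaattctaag
pair 2, plus strand, A_30_P01024188: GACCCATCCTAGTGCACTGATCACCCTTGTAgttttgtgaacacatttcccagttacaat
pair 3, minus strand, A_30_P01026819: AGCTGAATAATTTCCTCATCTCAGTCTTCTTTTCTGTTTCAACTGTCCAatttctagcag
pair 3, plus strand, A_30_P01027163: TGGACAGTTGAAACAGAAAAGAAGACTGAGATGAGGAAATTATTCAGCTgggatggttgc

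No flanking gene passed the test for a KO over WT difference, and the members' ratios were of a size near those of the rest of chromosome 2. Of the member probes, 83 (under 58 names) entered the tests and 24 did not; entry required signal well above background in every sample of WT HSCs, WT MPPs, KO HSCs or KO MPPs. On the rest of the chromosome 3264 of 4108 did. None of the 83 passed an adjusted p of 0.05 in limma in HSCs, in MPPs or in the mean KO effect over both populations, where 0 of all 44641 probes (0.00%) passed either. The smallest adjusted p among the members was 0.667 in HSCs, 0.992 in MPPs and 0.619 for the mean effect. At an unadjusted p under 0.05 there were 2 members in HSCs, where 7.34% of all probes were at this level. In MPPs there were 4 (all probes: 4.81%), and for the mean effect 4 (all probes: 7.90%). Expressed as shares of 83, these are 2.41%, 4.82% and 4.82%, all near or below the background.

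The members' median log2 ratio in HSCs was 0.047, against -0.0025 on the rest of chromosome 2 and -0.0036 over all probes. In MPPs it was 0.065, against 0.012 and -0.0034, and for the mean effect 0.11, against 0.0058 and -0.0088. The distance of these medians from 0 is small beside the middle 50% of the members, whose mean effects ran from -0.25 to 0.25. The median size of a member's mean effect, whatever its sign, was 0.26, against 0.23 and 0.24. Array by array the members' median was -0.16, 0.034 and 0.12 in HSC replicates 1 to 3 and 0.078, 0.0059 and 0.17 in MPP replicates 1 to 3, so its sign was not the same on every array, and without HSC replicate 3 the HSC median was -0.024. Without the same array the median mean effect was 0.0062. On the mean effect 48 of 83 members (57.8%) were above 0, against 49.0% of all probes. This split moved with the scaling: with median centring of each array, and no loess, all probes shifted up by 0.25, and 58 of 83 members were then above 0, against 68.9% of all probes.

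Agreement of sign across arrays was counted, since an allele carried on the chromosome would be present in KO cells of both populations. A dye effect of a probe would also keep 1 sign, and the count cannot tell them apart. Neither cause was tested. A constant sign on all 6 arrays was found for 3 of the 83 members (3.61%), beside 5.45% of the rest of chromosome 2 and 6.24% of all probes. In the adjacent 10 Mb before and after the interval it was 7.29% and 5.78%. On the 3 MPP arrays 25 members (30.1%) had a constant sign, near the 27.2% of the rest of the chromosome and the 29.1% of all probes. On the 3 HSC arrays only 9 did (10.8%), beside 26.7% and 26.8%. Among the 64 members well above background in both channels of every array it was 6 (9.38%). No test of these shares was made, since members share design regions and genes. The members' ratios on HSC replicate 1 ran against those on replicates 2 and 3 (r = -0.19 and -0.31 over 83 probes, several of them of 1 gene), where all 44641 probes gave -0.020 and -0.070. A mean effect of at least 1 in size was found for 1 member (1.20%), beside 3.13% and 3.78%. That size was reached by 10 members in HSCs (12.05%, all probes 11.3%) and by 3 in MPPs (3.61%, all probes 7.55%).

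**Figure D1:**
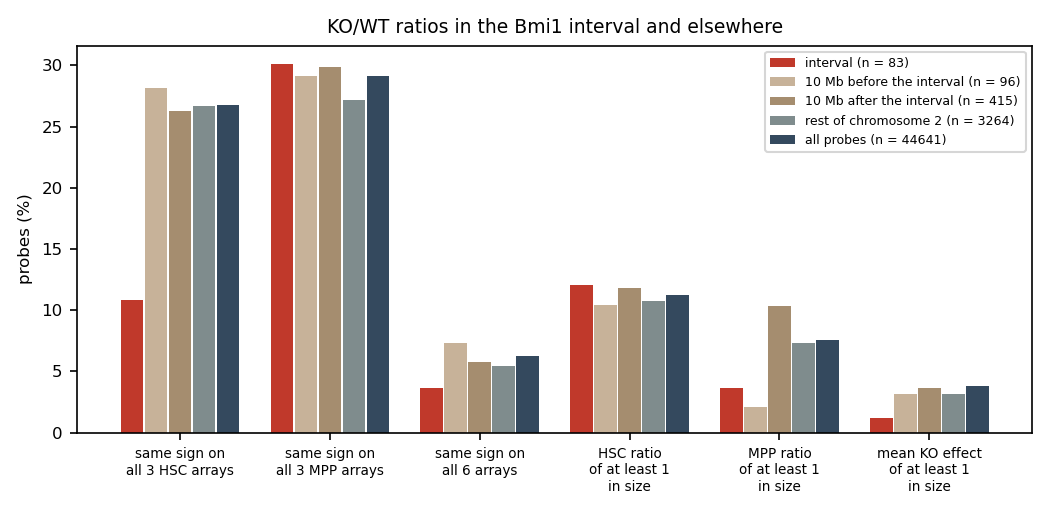
Percentage of probes (vertical axis) with a constant sign of the KO over WT ratio on the HSC, MPP or all arrays, and with a log2 ratio of at least 1 in size, for the interval around Bmi1, the adjacent 10 Mb on each side, the rest of chromosome 2 and all probes; n is the number of probes kept. The interval's bar is below the others for the HSC arrays (10.8% against 26.7% on the rest of the chromosome) and at a similar height for the MPP arrays (30.1% against 27.2%).

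Ordered by position, the mean effects were of both signs on each side of Bmi1, and in the first 1 Mb before it 8 of 9 were above 0. A run of 8 neighbouring kept probes there, from H2al2a to NAP102109-1, lay between 0.0015 and 0.54; this run was picked out after its values were seen, and none of its probes passed the test. Within 1 Mb of Bmi1, 15 of 19 probes had a mean effect above 0, and beyond it 33 of 64 did. The median in the first 1 Mb was 0.13 before Bmi1 (9 probes) and 0.17 after it (10 probes). From 1 to 2.5 Mb the medians were 0.22 before (5 probes) and -0.017 after (7 probes), and beyond 2.5 Mb -0.094 (17 probes) and 0.18 (35 probes). The small positive median near Bmi1 was not seen on each array: over those 19 probes it was 0.15, 0.052 and -0.15 on the HSC arrays and 0.19, 0.17 and -0.18 on the MPP arrays. At the edges, the outermost probes inside were Hacd1 (-0.094) and Stam (-0.29) on one side and both outer Spopl probes (0.45 and -0.47) on the other. Those just outside were Vim (0.50) and Gm9875 (0.26), and both Hnmt probes (0.58 and 0.26).

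**Figure D2:**
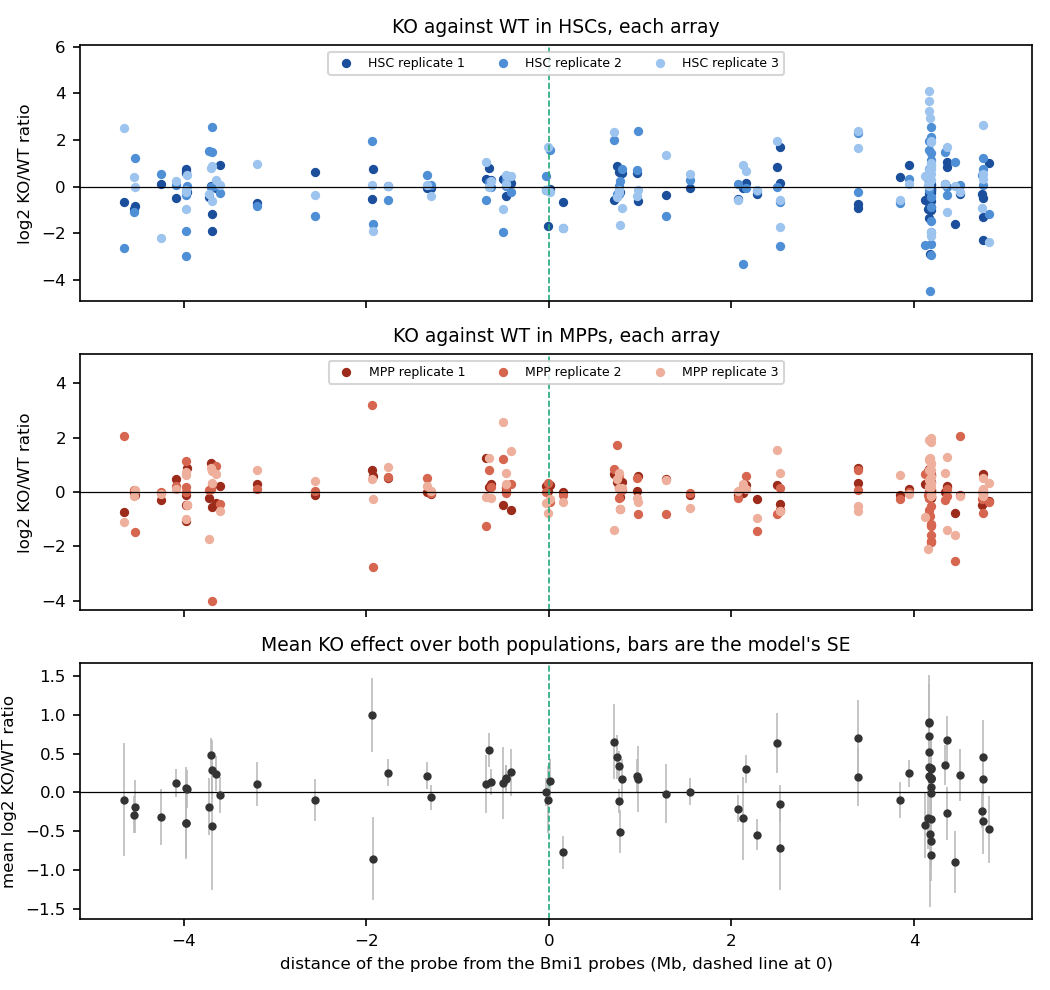
Log2 KO over WT ratio of the 83 kept member probes (vertical axes) against distance from the Bmi1 probes in Mb (horizontal axis): each HSC array, each MPP array, and the mean effect over both populations with the model's standard error. Points lie above and below 0 on both sides of Bmi1, and the cluster of points more than 4 Mb after Bmi1 holds the 16 lincRNA design probes.

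The immediate neighbours of Bmi1 included members with large spread and no constant sign. Commd3, whose product belongs to the Commander complex of endosomal sorting, lay closest of the genes with a symbol, on the same strand as the Bmi1 probes. Its ratios were -1.69, -0.15 and 1.68 in HSC replicates 1 to 3 and 0.025, 0.32 and -0.75 in MPP replicates 1 to 3. HSC replicate 1 was the lowest and HSC replicate 3 the highest of all 6, so the mean of -0.054 ± 1.69 (SD, n = 3) in HSCs was far smaller than the spread, and the mean effect was -0.094 ± 0.43 (SE) with a limma adjusted p of 0.963. On either side lay NAP102109-1 (0.037 Mb before Bmi1), with ratios of -0.16, 0.46 and -0.15 in HSC replicates 1 to 3 and 0.24, 0.0059 and -0.39 in MPP replicates 1 to 3, and ENSMUST00000138017 (0.013 Mb after), with -0.092, 1.56 and -0.24 in HSC replicates 1 to 3 and 0.24, -0.35 and -0.24 in MPP replicates 1 to 3. Their mean effects were 0.0015 ± 0.18 and 0.15 ± 0.28 (SE), and both had arrays on either side of 0; for the second, HSC replicate 2 alone was above 1.

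Mllt10 encodes AF10, a cofactor of the histone methyltransferase DOT1L and a partner in leukaemia fusions, and lay 0.475 Mb before Bmi1. Its ratios were -0.39, 0.27 and 0.12 in HSC replicates 1 to 3 and 0.15, 0.19 and 0.70 in MPP replicates 1 to 3. Apart from HSC replicate 1, all were above 0, and the mean effect of 0.17 ± 0.18 (SE) had an adjusted p of 0.806 in limma. Dnajc1, a co-chaperone of the endoplasmic reticulum membrane at 0.468 Mb before, gave 0.28, 0.034 and 0.53 in HSC replicates 1 to 3 and 0.033, -0.024 and 0.29 in MPP replicates 1 to 3. They were above 0 on every array but MPP replicate 2, and the HSC estimate was 0.28 ± 0.23 (SE; adjusted p = 0.764). AK139292 at 0.413 Mb before Bmi1 gave 0.15, -0.22 and 0.46 in HSC replicates 1 to 3 and -0.67, 0.32 and 1.50 in MPP replicates 1 to 3, with MPP replicates 1 and 3 at opposite ends. Spag6, a gene of the axoneme of cilia and flagella, and AK083495, 4933439G12Rik, 4930426L09Rik and an unnamed probe (A_55_P2023627) also lay within 500 kb after Bmi1, but their 6 probes were too dim to be kept.

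**Figure D3:**
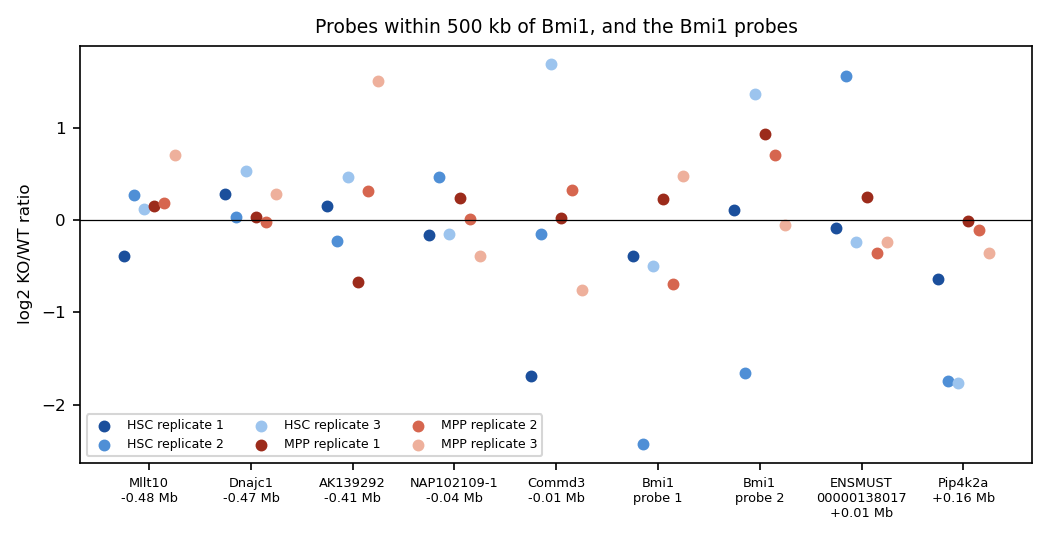
Log2 KO over WT ratio (vertical axis) on each of the 6 arrays for the kept probes within 500 kb of Bmi1 and for both Bmi1 probes, in chromosomal order; distances from Bmi1 in Mb stand under the names. Pip4k2a is the only one of these with all 6 points below 0, and Commd3 spans -1.69 to 1.68 among the HSC arrays.

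Pip4k2a, a lipid kinase that makes phosphatidylinositol bisphosphate and the nearest kept gene after Bmi1 with a symbol, had a ratio below 0 on all 6 arrays, though barely so in MPP replicate 1. Its ratios were -0.64, -1.75 and -1.76 in HSC replicates 1 to 3 and -0.0068, -0.11 and -0.36 in MPP replicates 1 to 3. The HSC arrays were all below the MPP arrays. In HSCs the estimate was -1.38 ± 0.30 (SE; 2.61-fold lower in KO), with an unadjusted p of 0.00317 and an adjusted p of 0.667 in limma, and in MPPs -0.16 ± 0.30 (adjusted p = 0.999). The mean effect was -0.77 ± 0.21 (adjusted p = 0.619), and it ran from -0.96 to -0.68 when each array was left out in turn. The other 2 members with a constant sign lay farther out. Gm13375 (2.28 Mb after) was below 0 throughout, with ratios of -0.29, -0.20 and -0.12 in HSC replicates 1 to 3 and -0.26, -1.45 and -0.95 in MPP replicates 1 to 3; its mean effect was -0.55 ± 0.20 (SE; adjusted p = 0.622). The lincRNA design probe A_30_P01019946 (4.16 Mb after) was above 0 throughout, with 0.064, 0.27 and 3.69 in HSC replicates 1 to 3 and 0.50, 0.036 and 0.80 in MPP replicates 1 to 3. Its mean effect of 0.89 ± 0.50 (SE; adjusted p = 0.678) rested on HSC replicate 3, since leaving that array out gave 0.30. KO was lower on all 6 arrays for 2 members (2.41%) beside 3.21% of all probes, and higher for 1 (1.20%) beside 3.03%.

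By function, the members of trafficking and lipid signalling gave 12 kept probes of 8 genes, with a median mean effect of -0.094 and 4 of 12 above 0, beside -0.0088 over all probes. The list's median was above 0 without HSC replicate 1 (0.027), without HSC replicate 2 (0.0084) and without MPP replicate 3 (0.075). It was also above 0 with slide row as a term (0.019) and with median centring of each array (0.14). None of its genes passed the test in either direction. Besides Pip4k2a they included Cacnb2, a subunit of voltage-gated calcium channels, whose probe A_51_P283300 had ratios of 0.042, -0.019 and 0.79 in HSC replicates 1 to 3 and 1.06, 0.12 and 0.88 in MPP replicates 1 to 3 and a mean effect of 0.48 ± 0.21 (SE; limma adjusted p = 0.636). Its other probes gave 0.12 ± 0.18 and -0.18 ± 0.37, so the probes of this gene did not share a sign. Acbd5, a peroxisomal membrane protein that binds acyl-CoA, had 0.14, 1.47 and 0.13 in HSC replicates 1 to 3 and -0.0079, -0.29 and 0.70 in MPP replicates 1 to 3 on one probe (mean effect 0.36 ± 0.26) and 0.85, -0.34 and -1.07 in HSC replicates 1 to 3 and 0.23, 0.11 and -1.41 in MPP replicates 1 to 3 on the other (mean effect -0.27 ± 0.34). HSC replicate 2 was the highest for the first, and both replicates 3 were the lowest for the second. Of the remaining genes, Stam, an endosomal sorting adaptor, had mean effects of -0.29 ± 0.24 and -0.18 ± 0.34 on its probes, Arl5b, a small GTPase of the trans-Golgi network, -0.033 ± 0.23, and Hacd1, a dehydratase of fatty acid elongation, -0.094 ± 0.73, where HSC replicates gave -0.64, -2.64 and 2.5 and MPP replicates -0.73, 2.06 and -1.11.

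The actin and integrin adaptors gave 8 kept probes of 6 genes, out of 12 probes on the array, with a median of -0.081 and 3 of 8 above 0, and none passed. This median changed sign with 4 of the other settings, among them the one without the filter on dim probes (0.010). Nebl, an actin-binding protein of the nebulin family, gave -0.065, 0.52 and 0.093 in HSC replicates 1 to 3 and 0.0025, 0.51 and 0.24 in MPP replicates 1 to 3 (mean effect 0.22 ± 0.17) on one probe, -0.064 ± 0.16 on a second, and its remaining probe was never well above background. That second Nebl probe entered only through KO MPPs, so the filter favoured values above 0 for it. Etl4, a gene of vertebral disc development, had mean effects of -0.21 ± 0.17 and -0.34 ± 0.53 on its kept probes. The first Etl4 probe entered only through WT HSCs, so the filter favoured values below 0 for it. The second rested on HSC replicate 2, at -3.32, with the other 5 arrays between -0.063 and 0.92. Apbb1ip, an adaptor that activates integrins through Rap, had -0.42 ± 0.42, with HSC ratios of -0.56, -2.51 and 0.45 and MPP ratios of 0.31, 0.68 and -0.90. Abi1, a subunit of the WAVE complex of actin assembly, had 0.18 ± 0.24, and the unconventional myosin Myo3a, which also counts in the list of genes of other tissues below, -0.097 ± 0.23.

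The nuclear, RNA and cell cycle genes gave 9 kept probes of 5 genes, with a median of 0.17 and 6 of 9 above 0, and none passed. Mastl, the Greatwall kinase that holds phosphatase PP2A in check at mitotic entry, had ratios of 1.06, -0.016 and 1.71 in HSC replicates 1 to 3 and 0.19, -0.16 and 1.29 in MPP replicates 1 to 3 and a mean effect of 0.68 ± 0.30 (SE; limma adjusted p = 0.636). It was above 0 on 4 of 6 arrays and slightly below on both replicates 2, but in WT HSCs its probe was well above background on only 1 of 3 arrays. Nsun6, a tRNA cytosine methyltransferase, disagreed among its probes: the mean effects were 0.29 ± 0.38, -0.43 ± 0.82 and 0.24 ± 0.23. The probe at -0.43 spanned -3.99 in MPP replicate 2 to 2.58 in HSC replicate 2. The probe at 0.24 (A_52_P153479) was not well above background in any WT HSC array. It entered only through KO MPPs, so the filter favoured values above 0 for it. Spopl, an adaptor of a cullin ubiquitin ligase, likewise had -0.37 ± 0.41, 0.45 ± 0.49 and -0.47 ± 0.43 on its 3 probes. Otud1, a deubiquitinase, had 0.17 ± 0.43, with HSC ratios of -0.63, 2.38 and -0.15 and MPP ratios of 0.59, -0.79 and -0.37.

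The mitochondrial genes gave 5 kept probes of 4 genes, with a median of -0.34 and 1 of 5 above 0, and none passed. Under median centring of each array this median was 0.0035. Yme1l1, a protease of the inner membrane, was below 0 on all 3 MPP arrays at -0.76, -2.54 and -1.58, while its HSC ratios were -1.61, 1.06 and 0.013. The MPP estimate of -1.62 ± 0.56 (SE; 3.08-fold lower in KO) had an adjusted p of 0.992 in limma. Msrb2, a methionine sulfoxide reductase, ran the other way in HSC replicates 2 and 3, at -0.57, 1.99 and 2.34 in HSC replicates 1 to 3 and 0.68, 0.85 and -1.39 in MPP replicates 1 to 3 (mean effect 0.65 ± 0.48). Thnsl1, a threonine synthase-like protein, had 1.72, -2.54 and -1.72 in HSC replicates 1 to 3 and -0.42, -0.69 and -0.68 in MPP replicates 1 to 3 on one probe (mean effect -0.72 ± 0.54). Its other probe, with -0.15 ± 0.24, shares runs of 25 bases with 6 probes of other loci, so its signal may not be of this gene alone. Pdss1, which makes the side chain of coenzyme Q, had -0.29, -2.92 and 0.76 in HSC replicates 1 to 3 and 0.37, -1.82 and 1.84 in MPP replicates 1 to 3 (mean effect -0.34 ± 0.62), with both replicates 2 the lowest.

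Genes best known from other tissues (nervous system, epithelia, cilia and macrophages) gave only 5 kept probes out of 13, with a median of 0.24 and 3 of 5 above 0, and none passed. That median was the value of Gad2. Gad2 and Enkur entered only through KO samples, so the filter favoured values above 0 for them. Without the filter on dim probes the list's median was 0.0027. Mrc1, the mannose receptor of macrophages, and Ptf1a, a pancreatic and neural transcription factor, were among those not kept. Plxdc2, a transmembrane protein with a plexin domain, had ratios of -0.52, 1.96 and 0.072 in HSC replicates 1 to 3 and 0.80, 3.21 and 0.49 in MPP replicates 1 to 3. MPP replicate 2 stood highest, the MPP estimate was 1.50 ± 0.67 (SE; limma adjusted p = 0.992), and the mean effect of 1.00 ± 0.48 was the one member value to reach 1. The zinc transporter Slc39a12 had a mean effect of -0.32 ± 0.37 on its kept probe. Enkur, a ciliary protein, gave 0.84, -0.0083 and 1.98 in HSC replicates 1 to 3 and 0.25, -0.81 and 1.55 in MPP replicates 1 to 3 (mean effect 0.63 ± 0.38). Gad2, a glutamate decarboxylase that makes the transmitter GABA, was well above background on all KO arrays and on no WT array. Its ratios were 0.95, 0.32 and 0.11 in HSC replicates 1 to 3 and 0.12, 0.022 and -0.061 in MPP replicates 1 to 3. The bound on its KO signal over WT was 1.38-fold in HSCs (normalized log2 means 7.03 and 6.57, limma adjusted p = 0.700) and 1.02-fold in MPPs. Such a bound sets the bright group's mean against the dim group's mean of, on each array, the lowest signal well above background or the dim probe's own, whichever is higher; here the probe's own was higher throughout, so the bound equals the measured difference. It was taken per channel after loess and between-array scaling, and dye cannot be told apart from genotype in it.

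Within single populations, 2 members were above 0 (all probes 2.20%) and 2 below (all probes 2.61%) at an unadjusted p under 0.05 in MPPs. In HSCs 0 were above (all probes 3.92%) and 2 below (all probes 3.42%). Those above in MPPs were 2 RIKEN transcripts. A930004D18Rik (0.659 Mb before Bmi1) had MPP ratios of 0.19, 0.80 and 1.27 and HSC ratios of 0.81, 0.20 and -0.017, with an MPP estimate of 0.75 ± 0.31 (SE; limma adjusted p = 0.992). 4930515L03Rik (1.77 Mb before) had 0.53, 0.56 and 0.91 in MPPs and 0.052, -0.56 and 0.021 in HSCs, with an estimate of 0.67 ± 0.25 (adjusted p = 0.992). Its MPP ratios lay above all its HSC ratios. Gm13375, with -0.26, -1.45 and -0.95, and Yme1l1 were those below in MPPs. In HSCs they were Pip4k2a and the lincRNA design probe A_30_P01027163, with -0.85, -0.86 and -2.10 (estimate -1.27 ± 0.47; adjusted p = 0.676). Its partner on the opposite strand, A_30_P01026819, had -0.62, -0.44 and -1.95.

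The difference of KO effects between the populations, MPPs minus HSCs, cancels a dye effect that both share. None of the members passed the adjusted threshold (all probes: 0.00%), the smallest adjusted p was 0.968, and 1 member was at an unadjusted p under 0.05, beside 4.15% of all probes. That member was Pip4k2a, at 1.22 ± 0.42 (SE; adjusted p = 0.968 in limma). The ratios of MPPs and HSCs did not overlap for 2 members (2.41%, all probes 8.42%), Pip4k2a and 4930515L03Rik, the latter at 0.83 ± 0.35 (SE). No member had all HSC arrays on one side of 0 and all MPP arrays on the other.

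Levels of the members were then compared between the populations within a single dye, which leaves dye and genotype fixed. These are log2 signals, quantile-normalized between the 6 arrays. In such bulk samples, fewer cells of a type and less RNA per cell cannot be told apart. In WT no member passed (all probes: 0.282%), and 13 of 83 (15.7%) were at an unadjusted p under 0.05, beside 14.2% of all probes. In KO no member passed (all probes: 0.352%), and 6 (7.23%) were, beside 11.6%. In WT all MPP levels were above all HSC levels for 9 members (10.8%, all probes 8.24%) and below for 9 (10.8%, all probes 12.9%). In KO they were above for 5 (6.02%, all probes 8.36%) and below for 8 (9.64%, all probes 10.6%). B-lineage signal, given above, was also higher in KO MPPs than in KO HSCs.

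Plxdc2 had WT levels of 11.48, 9.85 and 11.57 in HSC replicates 1 to 3 and 8.57, 7.09 and 8.80 in MPP replicates 1 to 3, and KO levels of 12.27, 13.13 and 13.07 and 10.74, 11.48 and 10.68. In both dyes every MPP sample was below every HSC sample, with differences of -2.81 ± 0.65 (SE) in WT and -1.85 ± 0.37 in KO and limma adjusted p-values of 0.209 and 0.143. A transcript cluster under the file name TC1651788, at chr2:16678047-16678106 next to the Plxdc2 probe (chr2:16673217-16673276) and on the same strand, had WT levels of 8.73, 10.78 and 10.84 in HSCs and 6.42, 8.46 and 7.35 in MPPs and KO levels of 11.06, 10.48 and 10.25 and 8.04, 7.11 and 8.39. It showed the same separation in both dyes, with differences of -2.71 ± 0.76 in WT and -2.75 ± 0.41 in KO (SE; adjusted p = 0.257 and 0.0726 in limma), the latter the smallest adjusted p of any member. The KO over WT ratios of these neighbouring probes had opposite signs on every array but MPP replicate 1.

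Mastl had WT levels of 6.29, 6.06 and 6.07 in HSCs and 7.64, 7.38 and 7.49 in MPPs, the latter all higher. The fitted difference was 1.37 ± 0.23 (SE; limma adjusted p = 0.108), but only 1 of 3 WT HSC samples was well above background, so it rests on a level near background. In KO the levels were 8.38, 6.52 and 8.92 and 9.16, 8.48 and 10.14, the groups overlapped, and the difference was 1.32 ± 0.71 (adjusted p = 0.523). Whether WT and KO differ in this was tested as the difference of KO effects, -0.48 ± 0.60 (SE; adjusted p = 0.968). Pip4k2a had KO levels of 11.50, 11.00 and 11.95 in HSCs and 12.89, 13.67 and 13.22 in MPPs, which did not overlap (1.78 ± 0.36, SE; adjusted p = 0.146), and WT levels of 10.87, 11.43 and 12.32 and 11.52, 12.19 and 12.02, which did. Arl5b had an MPP minus HSC difference in the KO dye of -0.77 ± 0.28 (SE; adjusted p = 0.380), again without passing. Among the lincRNA design probes, WT levels in MPPs were above those in HSCs for A_30_P01029080 (2.61 ± 0.62) and A_30_P01019946 (2.13 ± 0.55), and for A_30_P01026508 (1.50 ± 0.42) and A_30_P01020111 (1.47 ± 0.44), with adjusted p-values of 0.219 to 0.271 in limma. Each of these pairs lies within 1 kb, and their members are not replicates. A_30_P01029080 was well above background on only 1 of 3 WT HSC arrays (levels 8.30, 6.08 and 6.19), so its difference too rests on levels near background.

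**Figure D4:**
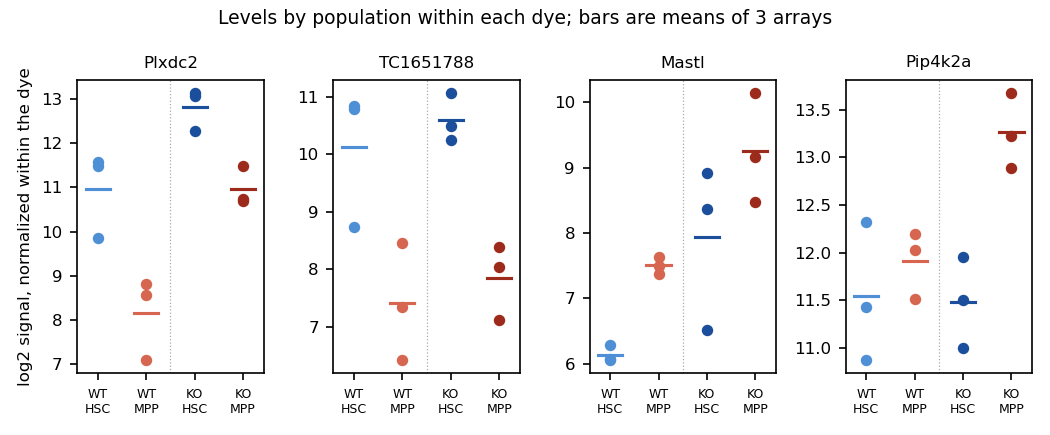
Log2 signal normalized within each dye (vertical axes) for Plxdc2, TC1651788, Mastl and Pip4k2a in WT HSCs, WT MPPs, KO HSCs and KO MPPs; points are the 3 samples of a group and bars their means. Levels on either side of the dotted line come from different dyes and are not comparable; within each dye the MPP points of Plxdc2 and TC1651788 all lie below the HSC points.

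Ratios were also compared between probes of the same place. Probes on opposite strands can read different transcripts, so such pairs do not measure how far 1 probe's ratio repeats. The 3 pairs printed above read opposite strands of overlapping stretches, and their ratios had the same sign in 15 of 18 array values (83.3%), with a median gap of 0.30. In pair 3 the minus-strand probe gave -0.62, -0.44 and -1.95 in HSC replicates 1 to 3 and 0.095, -1.19 and 0.34 in MPP replicates 1 to 3 and the plus-strand probe -0.85, -0.86 and -2.10 in HSC replicates 1 to 3 and -0.049, -1.57 and 0.57 in MPP replicates 1 to 3. In pair 2 the values were 0.13, -1.45 and 0.94 in HSC replicates 1 to 3 and -0.20, 0.64 and 1.02 in MPP replicates 1 to 3 on the minus strand and -0.20, -1.92 and 0.56 in HSC replicates 1 to 3 and 0.078, 0.60 and 0.82 in MPP replicates 1 to 3 on the plus strand. Pair 1 gave -1.35, 1.56 and 0.048 in HSC replicates 1 to 3 and 0.72, -0.22 and 1.22 in MPP replicates 1 to 3 on the minus strand and -0.96, 1.95 and 0.16 in HSC replicates 1 to 3 and 0.84, -0.79 and 1.92 in MPP replicates 1 to 3 on the plus strand. In each pair the array farthest from 0 was the same for both probes. Over the whole array, 1730 such opposite-strand pairs with at least 20 shared bases had the same sign in 76.7% of array values, with a median gap of 0.28, so the members' pairs were close to the array's. Overlapping pairs on the same strand, 825 of them and all without a member, had the same sign in 85.0%, with a median gap of 0.18. Probes of members within 1 kb that do not overlap had the same sign in 64.3% of array values, on the same strand (7 pairs) and on opposite strands (7 pairs) alike. Of the 14 names with at least 2 kept probes, 5 had mean effects of 1 sign. Some of these names had more kept probes, up to 5, for which a shared sign is harder to reach. No share over the whole array stands beside this count or beside the 64.3%, so neither is read as particular to the members.

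**Figure D5:**
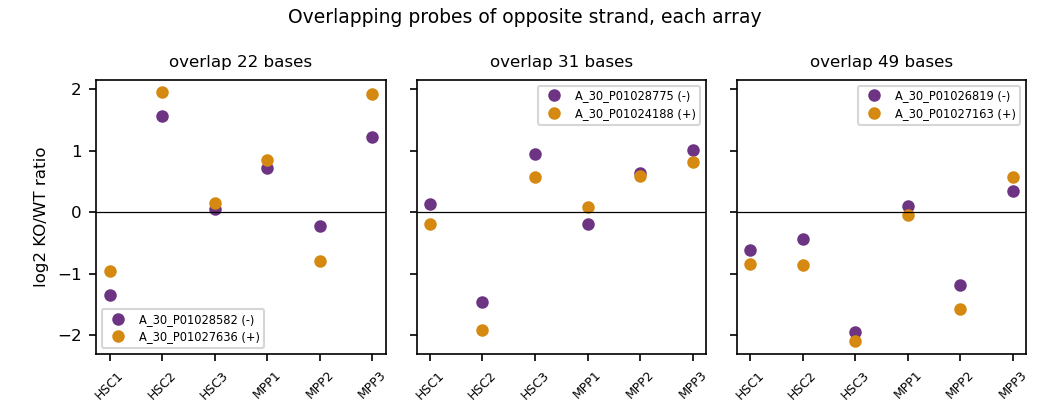
Log2 KO over WT ratio (vertical axis) on each array (horizontal axis) for the 3 pairs of lincRNA design probes that read overlapping stretches on opposite strands; purple is the minus-strand and orange the plus-strand probe, and the shared length stands above each panel. The points of a pair follow each other across the arrays, with a median gap of 0.30, and both probes of pair 3 are lowest in HSC replicate 3 (-1.95 and -2.10).

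The lincRNA design probes, all 16 of them kept, had mean effects of -0.81 to 0.91 with a median of 0.20, and 11 of 16 were above 0. The second of their regions also holds the probes for Pdss1 and Abi1. A further 29 kept probes belonged to no list, among them RIKEN and predicted transcripts and probes with only an accession. Their mean effects ran from -0.85 to 0.71 with a median of 0.11, and 20 were above 0. Skida1, a nuclear protein related to SKI and DACH, was at 0.13 ± 0.16 (SE), and the histone gene H2al2a at 0.11 ± 0.37.

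Of the 24 members not kept, 9 were not well above background in any channel of any array and 15 were so in too few. Gpr158, an orphan receptor of neurons, and Nxph2, a neurexophilin, were dim in this sense. Over all member probes, whatever their brightness, the median mean effect was 0.064 and 5 (4.67%) had a constant sign on 6 arrays, beside 5.90% of the rest of chromosome 2. The members' probes had a median GC content of 41.7%, beside 43.3% on the rest of the chromosome, and GC content correlated with the mean effect at r = 0.068 over the 83 probes. Besides the Thnsl1 probe, those of Gm13315, A_55_P2186929 and the lincRNA design probe A_30_P01029677 share runs of 25 bases with probes of other chromosomes, and their values are uncertain. The number of arrays, 3 per population, limits the precision of every value given.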

How the data were processed

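Agilent Feature Extraction 10.7.3.1 made the deposited spot tables, per the file headers, while 8.5.1.1 is the version in the submitters' processing notes. The tables held each spot's intensity and local background per dye, marks of 0 or 1 (other) for spots well above background, saturated or outlying, and a log10 ratio of processed signals, used as an alternative and equal to the deposited value table. Probe positions (mm9) and names were those of the files, with symbols updated through RefSeq accessions for 27235 probes. Here, intensities were corrected by normexp (offset 50) in limma 3.58.1 (R 4.3.3), each array's log2 ratios were loess-normalized, outlying spots dropped and spots of a probe averaged. limma (lmFit, eBayes) was fitted to all 6 arrays, with a mean for each population; adjustment was by Benjamini-Hochberg over 44641 probes (threshold 0.05), several per gene in places. The labels call the arrays biological replicates but name no animals, so p-values measure only the spread between these samples. The code was tested on simulated data. The text names genes within 500 kb of Bmi1, members of constant sign, the members of lowest p per direction (up to 5) and the lowest p per list; other list members were added after their values were seen, and 1 listed gene is not reported here. Members, lists and tests were chosen with earlier results of these data known. Lists covered trafficking, actin, nuclear, mitochondrial and other-tissue genes, and cell type markers. Alternatives changed the background correction, normalization, filter, probes per name, arrays, interval width, or added the replicate number or slide row. Positions within a gene (exon, intron, UTR) were not analysed here.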

Additional observations from a re-analysis of the deposited data

Results flagged for a closer look

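A signal was seen in probes that the comparisons leave out as too dim, above the level of the WT samples, for 2 genes. Armc3, 0.624 Mb after Bmi1, was well above background in 2 of 3 KO HSC samples and in no WT HSC sample. On the mean of the 3 arrays KO was at least 1.80-fold higher. Its log2 ratios in HSCs were 0.39, 0.12 and 2.39 and its KO levels 6.87, 6.41 and 9.70, so HSC replicate 3 carried it. In MPPs Armc3 was well above background in 1 KO sample and in no WT sample, and the log2 bound was below 0 (-0.15). Spag6, a gene of the axoneme, 0.047 Mb after Bmi1, was well above background in 2 of 3 KO MPP samples and in no WT MPP sample. On the mean of the 3 arrays KO was at least 2.5-fold higher. Its KO levels in MPPs were 6.56, 11.87 and 5.84, so MPP replicate 2 carried it, and the log2 ratio in MPP replicate 3 was -0.13. In HSCs the same probe was instead well above background in 1 WT sample, at 8.25 in HSC replicate 3, and in no KO sample, and the second Spag6 probe was never well above background. Neither gene was tested, and dye cannot be told apart from genotype.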

How the results depend on the processing

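No member passed an adjusted p of 0.05 in any of the 6 comparisons under any setting tried. Of 249 recomputed counts and medians 235 stayed within the spread between arrays or within 1.5 times. That share does not measure stability. The counts were 0 throughout, and the spread allowed could exceed the median itself, as for the nuclear list (0.51 beside 0.17). Of 848 recomputed values of named probes, 832 kept their direction and 16 changed sign, none of them past the threshold. Probes named for a constant sign or for groups that do not overlap could not change sign when an array was left out. The share that kept direction was thus partly fixed by how probes were picked. The causes of changes were not tested unless given. With the deposited log ratio, the members' MPP median was 0.16, the other-tissue list's median 0.89 and NAP102109-1 -0.033. Median centring, which shifts all probes by 0.25 in HSCs, 0.22 in MPPs and 0.25 in the mean effect, gave members' medians of 0.29, 0.35 and 0.40 there, list medians of 0.065 (actin) and 0.0035 (mitochondrial), and HSC estimates of 0.11 for A_55_P1999261 and 0.047 for Gm13375. The mean effects of Commd3, Nsun6 (A_52_P153479) and Gad2 were then 0.28, -0.060 and -0.022. With a normexp offset of 1, the other-tissue median was 0.44 and NAP102109-1 -0.011. Without the filter on dim probes the actin and other-tissue medians were 0.010 and 0.0027, and with only probes well above background everywhere 0.18 and 0.45; here the probes counted differ. With 1 probe per name the actin median was 0.040. Leaving out each array in turn, the mitochondrial median ran from -0.70 to -0.072 (the lowest without MPP replicate 3, the highest without HSC replicate 2), and mean effects from -0.53 to 0.32 for Commd3, -0.10 to 0.086 for NAP102109-1, -0.14 to 0.31 for ENSMUST00000138017 and -0.024 to 0.52 for AK139292; the members' median mean effect ran from 0.0062 to 0.13 (the lowest without HSC replicate 3). With slide row as a term (row 1 held all HSC arrays and MPP replicate 1), AK139292 was -0.27 and Nsun6 (A_52_P153479) -0.17. Within 2.5 Mb and 1 Mb of Bmi1 the members' median mean effect was 0.15 and 0.17, and without the lincRNA design probes, a choice made after seeing the data, 0.054.

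Same-numbered HSC and MPP arrays had correlated deviations of -0.066, 0.00057 and 0.0062 (r, replicates 1 to 3) for ratios, 0.16, 0.044 and 0.11 for WT levels and 0.043, 0.087 and -0.0059 for KO levels. Not every pair exceeded 0.1 in any of them, so the number was not taken as a pairing; for WT levels the same-numbered pairs were the 3 highest of 9, a hint from the data only. With the replicate number as a block, 0 members passed in each comparison and the members' median mean effect was 0.11, as without it. Over members with dim probes, ratios near background carry little signal, and 3 arrays per population limit what could pass.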
